A study of Mus musculus with 14 samples.

Results

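The regions described here are H3K27me3 islands that were called in Ezh2 knockout tumour cells and at no overlapping position in Cas9 tumour cells. They were chosen as autosomal islands of the knockout list that share no base with any island of the Cas9 list, and 3491 of 5305 autosomal knockout islands met this rule, or 65.8%. They are called knockout-only islands below, and the other 1814 knockout islands, which overlap a Cas9 island, are called shared islands. The knockout tumour cells carry the genotype p53-/-;p18-/-;Ezh2-/-, and the Cas9 tumour cells are p53-/-;p18-/-. Per the labels both are tumorspheres of Group 3 medulloblastoma, a tumour of the cerebellum, that over-express Myc and were infected with retroviral vectors, sorted by fluorescence and expanded in culture. The protocol goes on to transplantation into the cerebral cortex of CD-1 nu/nu mice, and it does not say whether chromatin was taken before or after that step. The loss of p53 and p18 is common to all groups, neurospheres included. The neurospheres, floating cultures of neural cells, are p53-/-;p18-/- and were labelled Suz12F2 or Cas9 for a Gfi1 antibody, and Suz12F1, Suz12F2 or U6 for a Cas9 antibody. The labels do not say what F1, F2 and U6 stand for, whether the knockout is 1 clone or whether samples were pooled, and the loss of Ezh2 itself could not be checked in lists of regions. Each group held 1 library, so no test across samples was possible, no value has a replicate error and no p-value is given.

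H3K27me3, the trimethylated lysine 27 of histone H3, is laid down by Polycomb repressive complex 2. Ezh2 is the main enzymatic subunit of this complex, Suz12 is a core subunit needed for its stability, and Ezh1 is a second enzyme that the complex can use. The mark typically covers silent developmental genes in broad domains and seldom shares a place with H3K27ac, a mark of active promoters and enhancers. H3K4me3 marks promoters and can occur together with H3K27me3. Gfi1 is a zinc finger transcriptional repressor.

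The data were 11 lists of enriched regions from chromatin immunoprecipitation sequencing, which pulls down chromatin with an antibody and sequences its DNA. All positions are in build mm9. The lists carry no library totals, so read depth is unknown, and a region that was not called may still hold the mark. Intervals in parentheses are Wilson 95% intervals over regions and cover counting error only. A gene annotation of this build was not used here, so regions are given by position and the identity of the cells could not be checked against marker genes. The islands of each list are numbered, and 71 numbers of the Cas9 H3K27me3 list and 105 of the knockout list were not analysed here. Of the knockout-only islands 82, or 2.35%, lie between Cas9 islands whose numbers skip, so a Cas9 island could lie there.

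The knockout-only islands were shorter and scored lower than the shared ones. They covered 11.5 Mb, or 61.8% of the H3K27me3 cover of the knockout, against 7.09 Mb in shared islands. Their median length was 3000 bp (quartiles 2200 and 4000, longest 16800), and that of shared islands was 3400 bp (quartiles 2400 and 4800, longest 29400). The authors' score, a whole number whose meaning the lists do not state, had a median of 37 (16 to 287) in knockout-only islands and 45 (18 to 647) in shared islands. Per kilobase of island the scores were closer, with medians of 13.0 and 13.7. These values come from the list that chose the islands and are a description. At the edge of the rule, 26 knockout-only islands abutted a Cas9 island with no base between, with a median score of 36. The highest-scoring of them, chr4:127956601-127966000, scored 112 and was covered to 42.6% by Gfi1 antibody regions in Suz12F2 and 100% in Cas9 neurospheres. On the other side of the rule, 34 shared islands overlapped a Cas9 island by only 200 bp, with a median score of 39.5.

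Knockout-only islands were unevenly spread over the chromosomes. Their density was 2.87 per Mb on chromosome 11, 2.77 on chromosome 5, 2.27 on chromosome 7, 2.13 on chromosome 4 and 1.99 on chromosome 1. These 5 chromosomes held 1843 of the 3491 islands, or 52.8%, in 31.5% of the autosomal span. At the low end the density was 0.226 per Mb on chromosome 3, 0.339 on chromosome 10 and 0.359 on chromosome 19, so that the highest and lowest chromosomes differed 12.7-fold. Cas9 H3K27me3 islands varied less, 6.02-fold, from 1.79 per Mb on chromosome 3 to 10.7 on chromosome 11. H3K4me3 peaks of the knockout varied 2.62-fold.

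**Figure D1:**
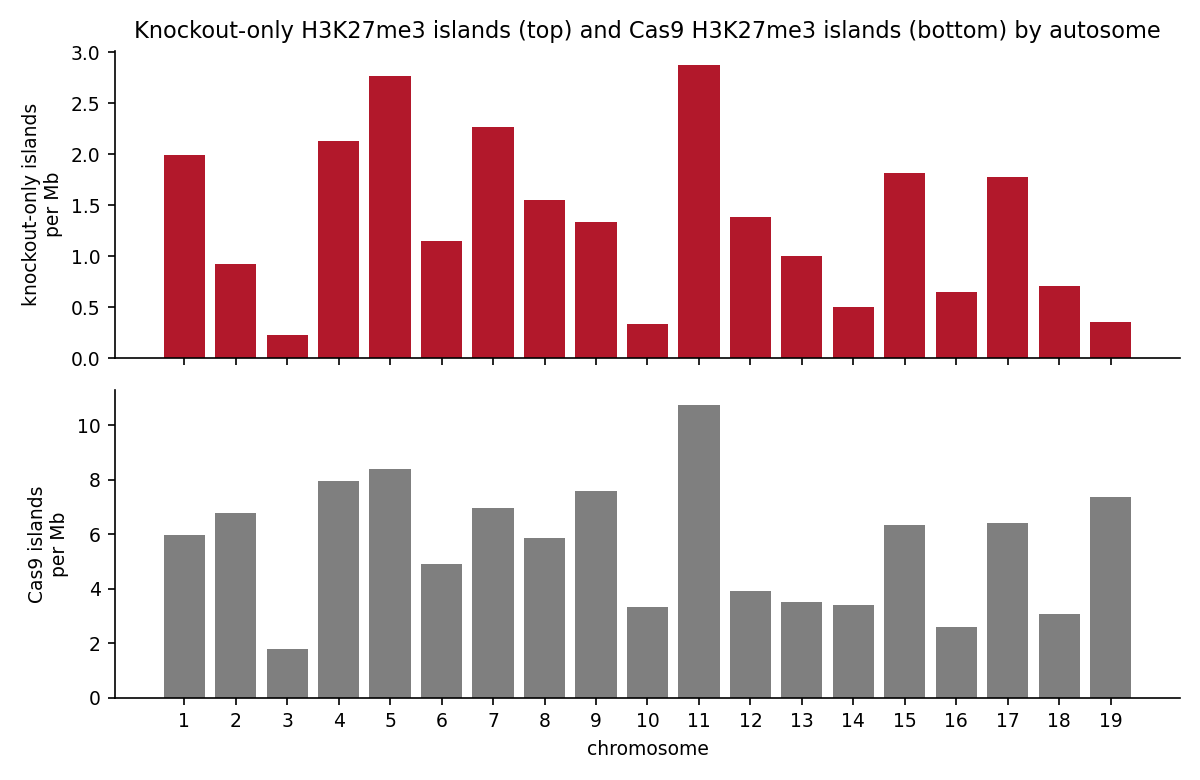
Number of islands per Mb of chromosome span (y axes) for the 19 autosomes (x axis), with knockout-only H3K27me3 islands in the upper panel and H3K27me3 islands of Cas9 cells in the lower. Chromosomes 11 and 5 stand highest in both panels, and chromosome 19 has 0.359 knockout-only islands per Mb beside 7.37 Cas9 islands.

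Relative to Cas9 islands, chromosome 19 had the fewest knockout-only islands, 4.87 per 100. It carried 452 Cas9 islands, or 7.37 per Mb, but 22 knockout-only islands, and there only 36.1% (25.2 to 48.6) of knockout islands were knockout-only. On chromosome 10 the share was 46.3% (36.6 to 56.3). The highest shares were 78.6% (71.4 to 84.3) on chromosome 13, 78.0% (67.9 to 85.6) on chromosome 16 and 77.9% (72.5 to 82.5) on chromosome 8.

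Within chromosomes the islands gathered in a small share of the megabase bins. Of 2481 autosomal bins of 1 Mb, 1533 held no knockout-only island and 172 held at least 5. Those 172 bins, 6.93% of all, held 2191 islands, or 62.8% (61.1 to 64.4). The 33 bins with at least 20 islands lay on 13 chromosomes and held 930 islands, or 26.6%, in 1.33% of the bins. The median gap between neighbouring knockout-only islands was 52.2 kb (quartiles 12.8 and 397 kb), where even spacing would give 708 kb. Shared islands also gathered in these places, with 49.7% of them in the same 172 bins, against 19.3% of Cas9 islands and 7.41% of knockout H3K4me3 peaks. These 172 bins were picked by their knockout-only islands, so the higher share of those islands in them is built in. When each kind was binned by its own counts, bins of at least 5 held 57.4% of shared islands in 88 bins. For Cas9 islands it was 89.0% in 769 bins. The cut of 5 is not alike for these kinds. Cas9 islands averaged 5.68 per Mb and knockout-only islands 1.41, so these shares do not rank the kinds by clustering.

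In the densest bins the H3K27me3 cover of the knockout exceeded that of Cas9 cells. Over all autosomes the cover of the knockout was 0.261 of that of Cas9 cells. In bins with 1 knockout-only island the ratio was 0.146, in bins with 5 to 9 it was 0.587, and in bins with at least 20 it was 1.61. In the last class the mean cover per bin was 143 kb in the knockout and 88.3 kb in Cas9 cells, and the knockout had the larger cover in 26 of 33 bins. The bins were grouped by calls of the knockout, so a larger cover of the knockout in the higher classes is built into the grouping. Of 483 bins with at least 10 Cas9 islands, 187 held no knockout-only island, a smaller share than the 61.8% of all bins. The mean number of Cas9 islands per bin was 3.71 in bins with no knockout-only island and 20.1 in bins of at least 20.

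**Figure D2:**
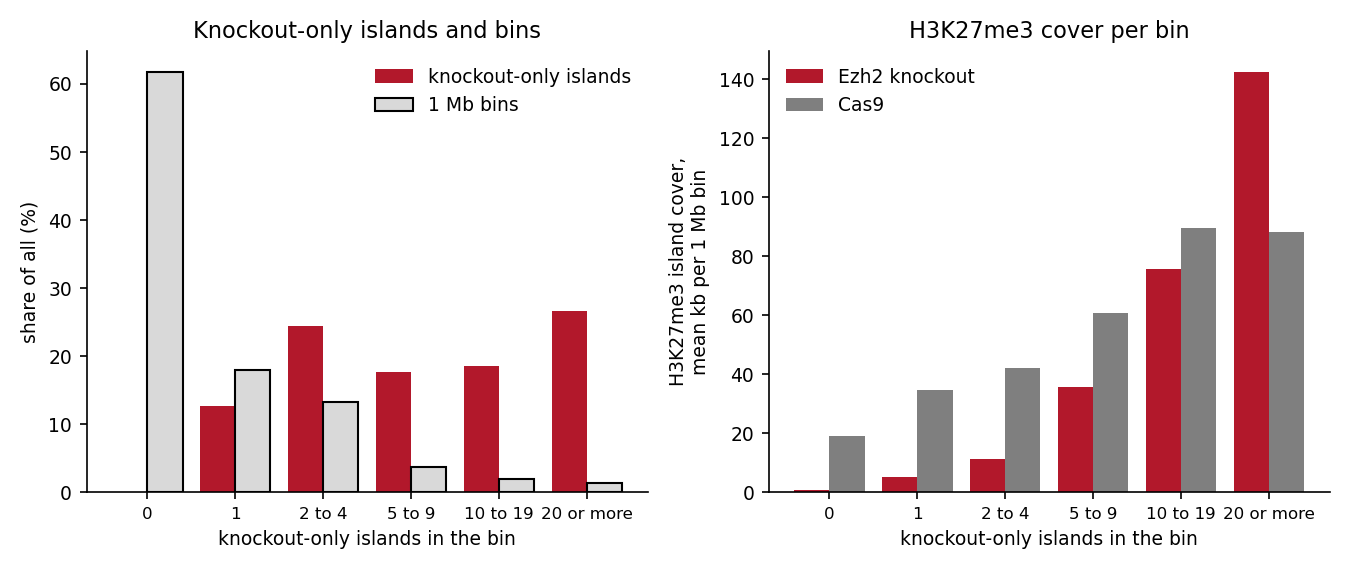
Bins of 1 Mb grouped by how many knockout-only islands they hold (x axes). The left panel gives the share (%) of knockout-only islands and of bins in each class, and the right panel the mean H3K27me3 island cover per bin (kb) in Ezh2 knockout and Cas9 cells; bins with 20 or more islands are 1.33% of bins, hold 26.6% of the islands and are the class where the knockout bar is the taller one.

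The densest bin was chr4:152000001-153000000, with 76 knockout-only and 22 shared islands in the knockout, against 25 islands in Cas9 cells. H3K27me3 covered 422 kb of it in the knockout and 92.6 kb in Cas9 cells, and neither the knockout nor Cas9 cells had an H3K27ac or H3K4me3 peak in it. It forms the core of the run with the most islands among runs separated by at most 50 kb, chr4:151961601-153314800, which held 101 knockout-only islands over 1353 kb. Across this run the cover was 42.3% in the knockout and 10.4% in Cas9 cells.

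The next bins held fewer islands and more active peaks. The bin chr8:121000001-122000000 held 48 knockout-only islands and 1 shared island, against 10 Cas9 islands. The bin chr15:87000001-88000000 held 38 knockout-only and 6 shared islands against 7 Cas9 islands, and chr5:129000001-130000000 held 36 and 12 against 35. The fifth place was tied at 34 islands between chr2:178000001-179000000 and chr5:116000001-117000000. Each of these bins held at least 1 knockout H3K4me3 peak, and the last held 8. Of the 41 runs with at least 10 knockout-only islands, which span 14.5 Mb in all, none contained an H3K27ac or H3K4me3 peak of the knockout, and 3 contained no Cas9 H3K27me3 island.

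The 12 knockout-only islands with the highest scores held no active peak and met no Cas9 antibody region, and 5 of them lay on chromosome 4. Of all knockout-only islands, 98.7% held no active peak, only 1.98% met a Cas9 antibody region and 9.51% lay on chromosome 4. The highest score, 287, belonged to chr4:145661201-145678000, which is also the longest at 16800 bp and was met by no neurosphere list. It lay 33.0 kb from the nearest Cas9 island and 876 kb from the nearest knockout peak of either active mark. The second, chr13:13015001-13028600, scored 259 and stood alone in its 1 Mb bin, 528 kb from a Cas9 island. Gfi1 antibody regions covered 36.8% of it in Suz12F2 neurospheres and 64.7% in Cas9 neurospheres. The third, chr6:113815201-113831000, scored 218 and lay 6.80 kb from a Cas9 island in a bin with 19 knockout-only islands.

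Of the remaining high scores, chr4:146707601-146715400 scored 207 and lies beside skipped numbers of the Cas9 list. The island chr11:53953401-53954400 reached 202 within 1000 bp, or 202 per kb, and no neurosphere list met it. The next highest score per kb among islands of at least 1 kb was 42.0, at chr3:61962601-61963600, so the chromosome 11 island stood apart. The island chr19:42398201-42414400, with a score of 201, lay 0.6 kb from a Cas9 island. The 6 others scored 156 to 189, and chr4:151801801-151813800 among them was covered to 100% by both Gfi1 lists. Among the 12, Gfi1 antibody regions of Suz12F2 neurospheres met 9 and those of Cas9 neurospheres met 10, beside 63.2% and 73.1% of the 646 knockout-only islands in the top score quartile of the knockout list.

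Most knockout-only islands were not immediate neighbours of Cas9 islands. The median distance to the nearest Cas9 island was 41.0 kb, with quartiles of 10.4 and 160 kb. Within 10 kb lay 844 islands, or 24.2%, and 100 islands, or 2.86%, lay within the 600 bp that the island caller bridges. At 100 kb or more lay 1153 islands, or 33.0%, and 176 lay at least 1 Mb away. The farthest was chr15:19639001-19642000, 6.13 Mb from a Cas9 island, and the 4 next farthest all lay on chromosome 1, at 5485 to 5721 kb. Chromosome 1 held 88 of the 359 islands at 500 kb or more, or 24.5%, and 64 of the 176 beyond 1 Mb, beside 11.3% of all knockout-only islands. The median distance by chromosome ran from 11.6 kb on chromosome 4 to 265 kb on chromosome 3.

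Active marks were rare at knockout-only islands. H3K27ac peaks of the knockout lay in 25 of them, or 0.716% (0.486 to 1.06), and in 54 shared islands, or 2.98% (2.29 to 3.86), against 1.49% of all autosomal knockout islands. H3K4me3 peaks of the knockout lay in 39 knockout-only islands, or 1.12% (0.818 to 1.52), and in 195 shared islands, or 10.7% (9.41 to 12.3), against 4.41% of all. H3K27ac peaks of Cas9 cells lay in 0.544% (0.349 to 0.849) of knockout-only and 0.606% (0.339 to 1.08) of shared islands, intervals that overlap, against 0.566% of all. H3K4me3 peaks of Cas9 cells lay in 1.06% and 7.99%, against 3.43% of all. In total 3446 knockout-only islands, or 98.7%, lacked H3K27ac and H3K4me3 peaks in knockout and Cas9 cells alike.

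The islands also lay farther from active peaks. The median distance to a knockout H3K27ac peak was 275 kb for knockout-only islands and 138 kb for shared islands, a difference of 137 kb (120 to 158, from the order-statistic 95% intervals of both medians). For H3K4me3 it was 240 kb and 95.7 kb, a difference of 144 kb (125 to 164). The H3K4me3 median was longer for knockout-only islands on 19 of 19 autosomes, and the H3K27ac median on 18. The exception was chromosome 10, where it was 77.8 kb for 44 knockout-only islands and 116 kb for 51 shared islands. H3K27me3 islands of Cas9 cells alone lay closest, at 65.6 kb from H3K27ac and 37.5 kb from H3K4me3 peaks of the knockout.

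**Figure D3:**
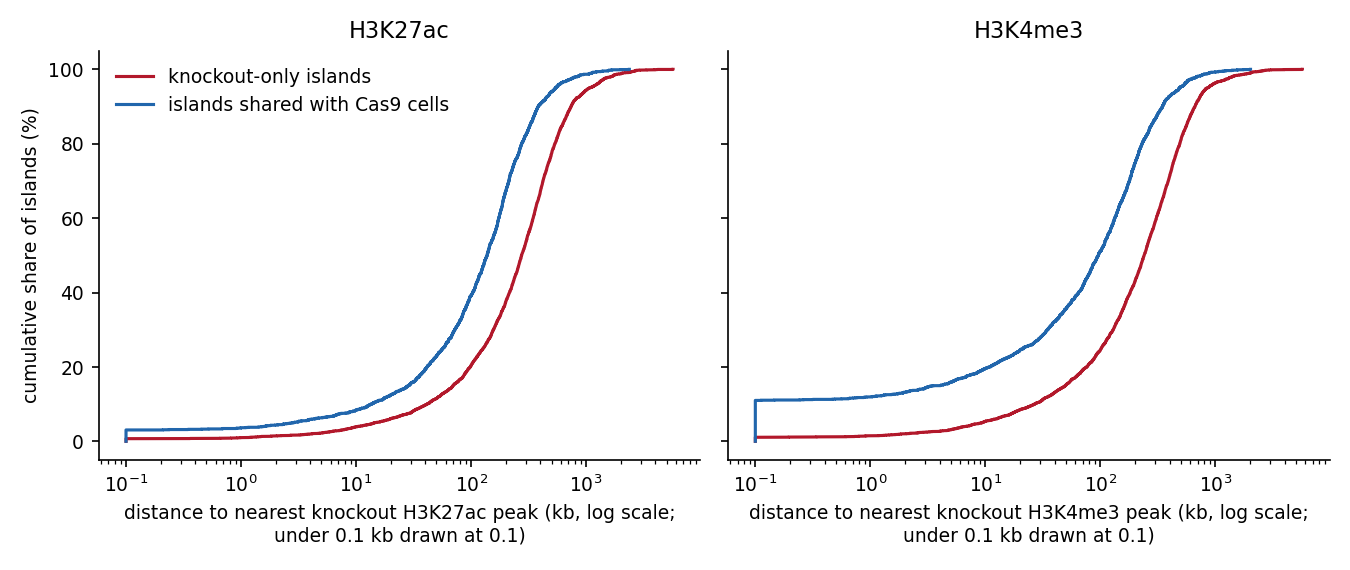
Cumulative share (%) of knockout-only and shared H3K27me3 islands (y axis) within a given distance (kb, log scale, x axes) of the nearest knockout H3K27ac peak (left) and H3K4me3 peak (right). The knockout-only curve lies to the right, with medians of 275 against 138 kb and 240 against 95.7 kb, and the H3K4me3 curve of shared islands starts at 10.7% because that share holds a peak.

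Islands in the densest bins lay farther from active peaks than lone islands, for knockout-only and shared islands alike. The median distance to a knockout H3K4me3 peak was 102 kb for knockout-only islands alone in their bin and 322 kb in bins of at least 20. Between these classes it did not climb evenly, at 181 kb in bins of 2 to 4, 248 kb in bins of 5 to 9 and 225 kb in bins of 10 to 19. For shared islands it was 36.4 kb in bins with 1 knockout-only island and 229 kb in bins of at least 20. Knockout H3K4me3 peaks lay in 17 of the 445 islands alone in their bin, or 3.82% (2.40 to 6.03). In bins of at least 20 islands they lay in 0 of 930, which allows a share of up to 0.323% when the limit is set at 3 counts and 0.411% by the Wilson upper bound. Of shared islands, 15.2% held such a peak in bins with 1 knockout-only island and 2.16% in bins of at least 20. The mean number of such peaks per bin was 4.80 in bins with no knockout-only island, 7.27 in bins with 1 and 5.15 in bins with at least 20.

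Peaks called in the knockout alone lay in 19 knockout-only islands, 10 with H3K27ac and 9 with H3K4me3, and none had both. These are shares of 0.286% and 0.258%, beside 45 and 87 shared islands, or 2.48% and 4.80%, and 1.04% and 1.81% of all autosomal knockout islands. The highest-scoring was chr2:157382201-157387800, which held 2 H3K4me3 peaks of the knockout alone and lay 45.8 kb from a Cas9 island. Next came chr7:6680001-6683800, where 1 of 2 knockout H3K4me3 peaks was of the knockout alone and Cas9 cells had 2 H3K27ac and 3 H3K4me3 peaks. The highest-scoring with H3K27ac of the knockout alone was chr16:17805801-17809800, at 1.40 kb from a Cas9 island and beside a skipped number of the Cas9 list. Of these 19 islands, 18 lay in Gfi1 antibody regions of Suz12F2 neurospheres, against 42.8% of all knockout-only islands, and 18 in those of Cas9 neurospheres, against 52.1%. This was not particular to peaks of the knockout alone. Of the 39 knockout-only islands with any knockout H3K4me3 peak, 39 lay in a Gfi1 antibody region of either kind of neurosphere.

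Gfi1 antibody regions of neurospheres met knockout-only islands less often than shared islands. In Suz12F2 neurospheres they met 1495 knockout-only islands, or 42.8% (41.2 to 44.5), and 1637 shared islands, or 90.2% (88.8 to 91.5), against 59.0% of all autosomal knockout islands. In Cas9 neurospheres they met 1818 knockout-only islands, or 52.1% (50.4 to 53.7), and 1681 shared islands, or 92.7% (91.4 to 93.8), against 66.0% of all. The differences were -47.4 percentage points (-49.5 to -45.2) and -40.6 (-42.6 to -38.5), with Newcombe 95% intervals for counting error. Both were negative on 19 of 19 autosomes. Islands of Cas9 cells alone stood between, at 73.3% and 78.1%. The neurospheres are other cells than the tumour, and both Gfi1 lists are long.

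Counted in bases, Gfi1 antibody regions still covered more of the knockout-only islands than of the autosomes. They covered 30.8% of knockout-only bases in Suz12F2 neurospheres and 42.9% in Cas9 neurospheres, beside 11.8% and 14.9% of the autosomal span. Of shared islands they covered 74.0% and 81.9%. By island, 1321 knockout-only islands, or 37.8%, were met in both neurospheres, 174 in Suz12F2 alone, 497 in Cas9 alone and 1499, or 42.9%, in neither. Among shared islands 87.5% were met in both and 4.58% in neither. The Suz12F2 list covers less of the autosomes than the Cas9 list, and whether this accounts for the larger number met in Cas9 neurospheres alone was not tested.

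**Figure D4:**
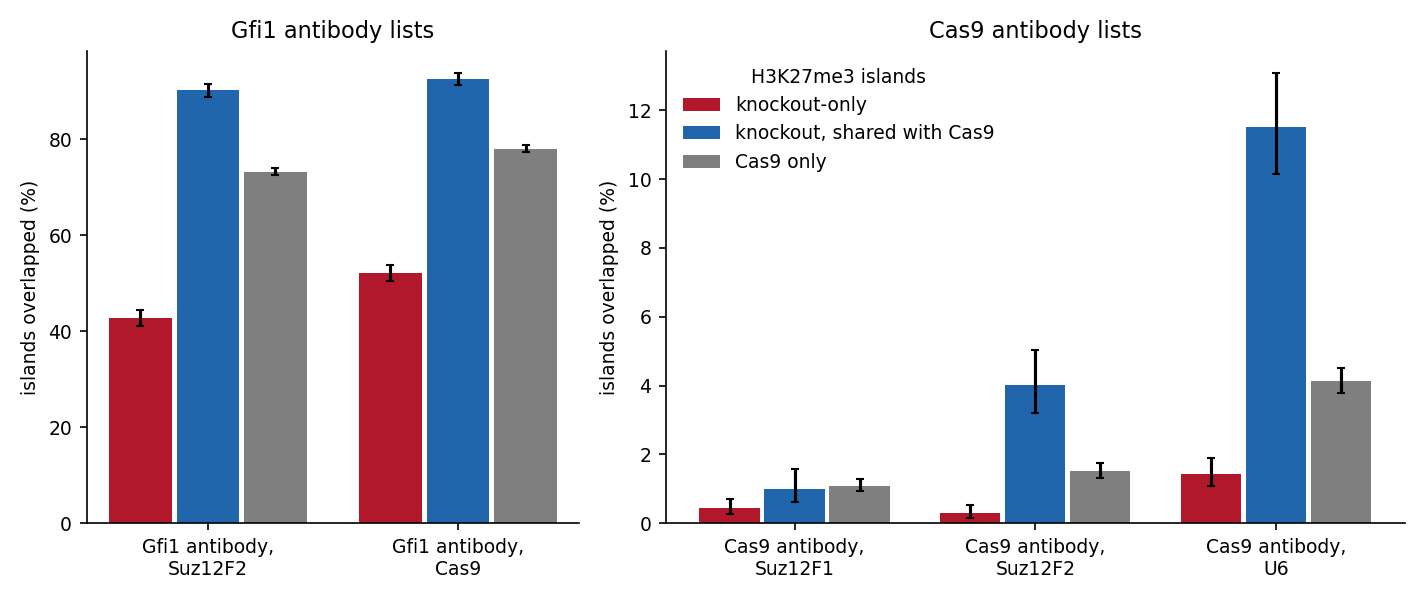
Share (%) of H3K27me3 islands overlapped by each neurosphere list (y axes), for Gfi1 antibody lists (left) and Cas9 antibody lists (right), with bars for knockout-only islands, knockout islands shared with Cas9 cells and islands of Cas9 cells alone, and Wilson 95% intervals for counting error. The knockout-only bar is the lowest of its 3 for each list.

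The overlap with Gfi1 antibody regions was lower at greater distance from Cas9 H3K27me3 islands. Of the 534 knockout-only islands under 5 kb from a Cas9 island, 69.9% (65.8 to 73.6) were met in Suz12F2 and 79.8% (76.2 to 83.0) in Cas9 neurospheres. At 10 to 50 kb the shares were 48.4% and 61.1%, and at 100 to 500 kb they were 25.7% and 30.7%. Of the 359 islands at 500 kb or more, 16.2% (12.7 to 20.3) and 14.8% (11.5 to 18.8) were met. In bases the last class was covered to 11.4% and 12.9%, close to the 11.8% and 14.9% of the span. Median island length was 3200 bp in the nearest class and 2600 bp in the farthest. Among islands of 2 to 4 kb alone, the shares still ran from 67.8% and 78.7% in the nearest class to 12.7% and 12.2% in the farthest.

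**Figure D5:**
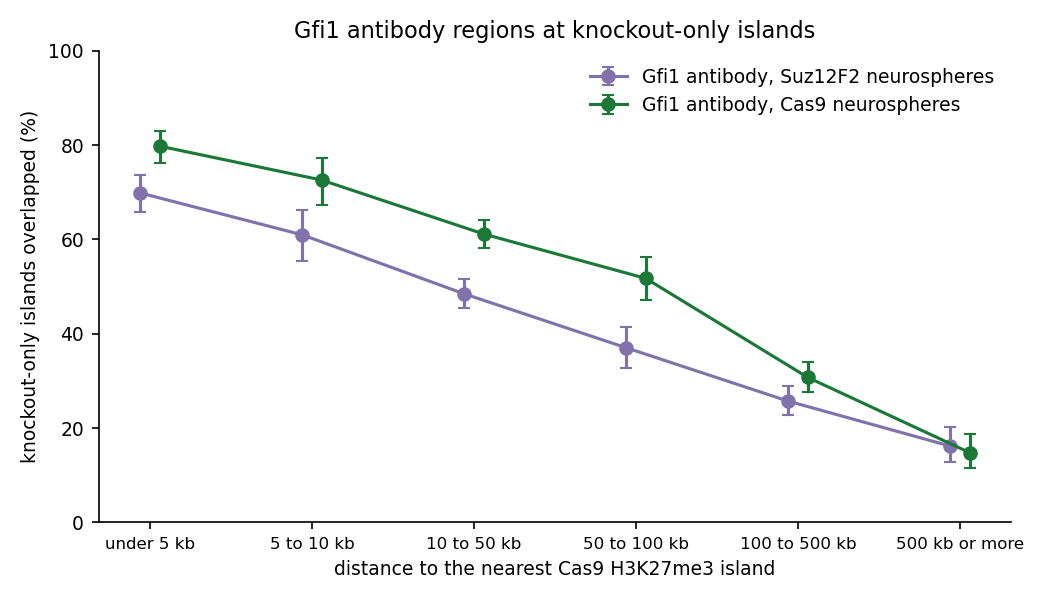
Share (%) of knockout-only islands overlapped by Gfi1 antibody regions of Suz12F2 and Cas9 neurospheres (y axis) in 6 classes of distance to the nearest Cas9 H3K27me3 island (x axis), with Wilson 95% intervals for counting error. The points run from 69.9% and 79.8% under 5 kb to 16.2% and 14.8% at 500 kb or more.

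The densest bins had the highest overlap, but it did not climb evenly with the number of islands in a bin. In bins of at least 20 knockout-only islands 57.5% (54.3 to 60.7) were met in Suz12F2 and 72.7% (69.7 to 75.5) in Cas9 neurospheres, and for islands alone in their bin the shares were 38.2% (33.8 to 42.8) and 39.6% (35.1 to 44.2). In bins of 2 to 4 they were 33.6% and 36.5%, in bins of 5 to 9 they were 33.7% and 43.1%, and in bins of 10 to 19 they were 45.8% and 60.2%, so in Suz12F2 neurospheres the classes from 2 to 9 lay below lone islands. Islands in bins of at least 20 lay at a median of 19.6 kb from a Cas9 island, and lone islands at 132 kb. At 100 to 500 kb from a Cas9 island, 22.3% of islands in bins of 5 or more were met in Suz12F2 neurospheres. In bins of 1 to 4 it was 28.8%, and in Cas9 neurospheres the shares were 37.0% and 24.9%. The order differed between distance classes. In Suz12F2 neurospheres it was 70.4% and 67.9% under 5 kb, and 59.8% and 66.7% at 5 to 10 kb. In Cas9 neurospheres it was 80.9% and 75.2% under 5 kb, and 14.3% and 14.9% at 500 kb or more. The Gfi1 lists themselves covered 349 kb and 473 kb per bin in bins of at least 20 islands, and 150 kb and 187 kb in bins with 1. Shared islands were met at 85.6% and 92.8% in bins of at least 20 and at 88.7% and 90.3% in bins with 1. The 6 densest bins were not alike: in chr5:129000001-130000000, 31 of 36 islands were met in each kind of neurosphere, while in chr15:87000001-88000000 it was 15 of 38 in Suz12F2 and 30 of 38 in Cas9 neurospheres.

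Chromosome 1 had the lowest share in Suz12F2 neurospheres, 17.6% of its 393 knockout-only islands, and 22.1% in Cas9 neurospheres, where only chromosomes 3 and 16 were lower, at 16.7% and 21.9%. Its islands lay at a median of 111 kb from a Cas9 island. The share was lower than on the other autosomes in each of the 6 distance classes, in both kinds of neurosphere. At 10 to 50 kb it was 26.2% and 36.9% of 84 islands on chromosome 1, and 50.4% and 63.3% of 948 islands on the other autosomes. Shared islands on chromosome 1 were met at 78.5% and 82.2%, the lowest of any autosome in Suz12F2 neurospheres. The highest shares of knockout-only islands were 55.4% on chromosome 4 in Suz12F2 and 71.1% on chromosome 11 in Cas9 neurospheres.

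Regions found with the Cas9 antibody met few knockout-only islands, and their lists are short. The Suz12F1, Suz12F2 and U6 lists cover 0.110%, 0.142% and 0.281% of the autosomal span. They cover 0.204%, 0.184% and 0.644% of knockout-only bases, and 0.643%, 2.23% and 5.75% of the bases of shared islands. The list of cells labelled Suz12F1 met 15, or 0.430% (0.261 to 0.708), and 18 shared islands, or 0.992% (0.629 to 1.56), against 0.622% of all autosomal knockout islands. The list labelled Suz12F2 met 10, or 0.286% (0.156 to 0.526), and 73 shared islands, or 4.02% (3.21 to 5.03), against 1.56% of all. The list labelled U6 met 50, or 1.43% (1.09 to 1.88), and 209 shared islands, or 11.5% (10.1 to 13.1), against 4.88% of all. The differences were -0.563 percentage points (-1.16 to -0.105) for Suz12F1, -3.74 (-4.75 to -2.89) for Suz12F2 and -10.1 (-11.7 to -8.63) for U6. The interval for Suz12F1 included 0 when only islands of 2 to 4 kb were compared, at -0.264 (-1.05 to 0.265), and under 3 further alternatives.

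Of the 50 knockout-only islands met by the U6 list, 10 held a knockout H3K4me3 peak, against 1.12% of all knockout-only islands, and 6 were also met by the Suz12F2 list, against 0.286% of all. Of the 15 met by the Suz12F1 list, 0 were met by another Cas9 antibody list and 0 held a knockout H3K4me3 peak, counts too small to set apart from those shares. In all 69 knockout-only islands, or 1.98%, lay in a Cas9 antibody region, of which 59 also lay in a Gfi1 antibody region, and 251 shared islands, or 13.8%, lay in one.

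No knockout-only island was met by all 5 neurosphere lists, and 1489, or 42.7%, were met by none. The 6 met by 4 lists are named although chosen after their values were seen, and each was met by both Gfi1 lists and by the Suz12F2 and U6 lists of the Cas9 antibody. The highest-scoring, chr7:4979401-4983800, scored 90, held no active peak and was covered in full by both Gfi1 lists. The islands chr15:76009601-76014200, chr9:106365001-106368400 and chr10:80297001-80298800 likewise held no active peak. The island chr8:11311201-11313800 held 2 H3K27ac and 4 H3K4me3 peaks of the knockout, and chr5:4756001-4758800 held 1 of each and lay 815 kb from a Cas9 island. All 6 had at most 4 knockout-only islands in their bin. Of all knockout-only islands, 12.7% were alone in their bin and 24.5% lay in bins of 2 to 4.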

How the data were processed

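Chromatin immunoprecipitation sequencing covered 14 libraries, 1 per group, of which 3 are inputs and 11 have a list of regions. The regions and their scores are the authors' deposited values: a score per region whose scale is not stated, used only within a list. The submitters' processing notes name build mm9 and, without roles, SICER 1.1, R 2.14.0, BWA 0.5.9-r26, SAMtools and Picard. The H3K27me3 and neurosphere islands carry a window of 200 bp, a gap of 600 bp and a false discovery rate of 0.00001 in the names of the deposited lists. For the H3K27ac and H3K4me3 peaks the caller, and for all lists the input, is not stated.

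An overlap was at least 1 bp. Distances run between nearest edges, and chromosome spans end at the highest position in any list. Shares have Wilson and differences Newcombe 95% intervals (Python 3.11.15, numpy 2.4.6, pandas 2.3.3, scipy 1.17.1, statsmodels 0.14.6), which treat islands as independent although neighbours are not. Overlaps were checked against bedtools 2.31.1 in 110 pairs of lists with 0 differing. Simulated windows of 200 bp were also placed inside 500 of the 5305 autosomal knockout islands, and the overlap step found 500 of 500.

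The islands named were drawn from the 12 with the highest scores, the 5 longest, the 5 with the highest score per kb, the 5 densest bins, up to 10 holding an active peak of the knockout alone, the 5 nearest to and the 5 farthest from a Cas9 island, and those in all 5 neurosphere lists, with the 6 islands in 4 lists added. The islands and lists were chosen with earlier results of these data known. Alternatives changed the overlap rule, scores, lengths, distances and bins.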

Additional observations from a re-analysis of the deposited data

How the results depend on the processing

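Of 69 alternative values, 46 stayed within the counting interval of the reported value and 23 moved beyond it. Only differences have a direction that could reverse. There were 46 alternative values of differences, of which 35 stayed, 11 moved and 0 reversed. When an overlap had to cover 50% of an island, 72.5% of knockout islands were knockout-only, 65.9% of them lay in bins of at least 5, the median distance to a Cas9 island was 31.2 kb, and the Gfi1 differences were -50.7 points in Suz12F2 and -43.0 in Cas9 neurospheres. In the upper 50% of scores these were 57.7%, with 12.3% on chromosome 11, 29.1 kb, -39.4 and -32.5. Among islands of 2 to 4 kb, 69.3% were knockout-only, with 12.5% on chromosome 5, then the densest, and 51.9% in bins of at least 5. With knockout-only islands at least 5 kb from a Cas9 island, the values were 62.0% knockout-only, 57.3% in such bins, a H3K27ac distance difference of 159 kb, and Gfi1 differences of -52.3 and -45.6. In 2 Mb bins of at least 10 islands, 54.2% lay. Without the bins of at least 20 islands, an alternative chosen after seeing the data, the distance differences were 118 kb for H3K27ac and 123 kb for H3K4me3, and the Gfi1 differences -53.6 and -48.1. The causes of these moves were not tested. Leaving out the 82 islands beside skipped Cas9 numbers, also chosen after seeing the data, moved no value beyond its interval.

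The Suz12F1 difference of the Cas9 antibody included 0 with 50% cover (-0.229), in the upper 50% of scores (-0.297), at 2 to 4 kb (-0.264) and without the bins of at least 20 (-0.443). No paired analysis was possible because each group held 1 library and the results come from no test. Depth is unknown, so how many islands were missed in either kind of cell cannot be told from these lists, and all intervals cover the counting of regions, not the spread between cultures.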

Other observations

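On chromosome X, which the rule leaves out, the knockout list held 7 H3K27me3 islands, of which 6 overlapped no Cas9 island, against 59 islands in the Cas9 list.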
